A study of Mus musculus with 2 samples.

Results

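The facilitative glucose transporters are membrane proteins of the solute carrier family 2 (gene names beginning Slc2a, protein names GLUT) that let sugars and related polyols cross membranes. The 10 genes described here are Slc2a1, Slc2a3, Slc2a4, Slc2a5, Slc2a6, Slc2a8, Slc2a9, Slc2a10, Slc2a12 and Slc2a13. They were chosen by name, and their rows were found in both deposited gene tables through the Ensembl identifier. They are 10 of the 43346 Ensembl genes in each gene table, and their 57 transcripts are among 103639 in each transcript table.

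Most of these proteins move a sugar down its concentration gradient, without ATP, through a bundle of membrane-spanning helices. Class I holds the well-studied glucose carriers, class II holds a fructose carrier and a urate carrier, and class III is a mixed group with several members found on internal membranes. In fat cells insulin moves GLUT4, the product of Slc2a4, from internal vesicles to the cell surface, where glucose enters for the synthesis of lipid.

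RNA with poly(A) tails was sequenced from a fat depot of the belly, the gonadal fat pad, which is white fat beside the gonads, of C57BL/6J mice aged 8 weeks. The labels describe littermates of both sexes, pooled, and name no treatment and no altered gene. The 2 libraries, replicates 1 and 2 of a single group, came from separate biosamples that carry one donor identifier. The number of mice behind each is not stated in the sources used here, so the spread between them may be partly technical. There was no second condition, so no test was run and no p-value is given. The question the values answer is which of these transporters the fat pad expressed, at what level, and from which transcripts.

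Expected counts, the authors' estimated fragments per gene, summed to 47106979 in replicate 1 and 54129473 in replicate 2 over Ensembl genes. All 8 adipocyte markers examined reached 1 TPM in each library, beside 33.0% of all Ensembl genes. Their summed levels were 13605 and 12272 TPM. TPM is transcript abundance per length, scaled to a fixed total per library. The 8 epididymal markers were also expressed and summed to 32416 and 21626 TPM, and the 8 spermatid and sperm markers summed to 584.2 and 387.6 TPM. Other marker sums lay at 499.9 and 589.1 TPM for endothelium, 451.7 and 507.2 for macrophages, and 10310 and 4071 for erythroid cells. Fibroblast markers summed to 931.6 and 732.4 TPM, smooth muscle to 1625 and 1848, skeletal muscle to 89.9 and 125.9, Schwann cells to 20.6 and 19.8, and neutrophils to 3.55 and 13.4. Most of the skeletal muscle sum was Acta1, at 68.4 and 83.6 TPM. No marker of these lists was at 0. In a whole tissue, fewer cells of a type and less RNA per cell cannot be told apart, and the share of any transporter that came from each cell type was not tested.

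All 10 transporter genes reached 1 TPM in each library, the level taken here as expressed, beside 33.0% of all Ensembl genes. The members were chosen with these levels known, and low genes of the family were not among them, so this count is a description only. Slc2a4 was highest, at 99.1 TPM in replicate 1 and 106.5 TPM in replicate 2. Behind it stood Slc2a8, Slc2a1, Slc2a5, Slc2a3 and Slc2a10, which with Slc2a4 make 6 genes that reached 10 TPM in each library. Slc2a9, Slc2a6, Slc2a12 and Slc2a13 lay under 10 TPM in both. The median of the 10 was 19.0 and 17.8 TPM, beside 14.2 and 12.7 TPM for all 14303 expressed genes. From the highest member to the lowest, levels spanned 72.9-fold in replicate 1 and 78.3-fold in replicate 2.

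By gene TPM, the ranges of neighbours over the libraries did not overlap between Slc2a4 and Slc2a8, Slc2a8 and Slc2a1, Slc2a5 and Slc2a3, Slc2a10 and Slc2a9, or Slc2a9 and Slc2a6. They did overlap for Slc2a1 with Slc2a5, Slc2a3 with Slc2a10, Slc2a6 with Slc2a12, and Slc2a12 with Slc2a13. An overlap of ranges does not compare genes within a library. Slc2a1 stood above Slc2a5, and Slc2a6 above Slc2a12, in each library. Slc2a3 and Slc2a10 changed order between the libraries, as did Slc2a12 and Slc2a13. With 2 libraries, the order within any of these pairs is poorly known. Steps without overlap could still depend on the quantity used. With coding transcripts only, Slc2a5 fell below Slc2a3 and Slc2a10, and the ranges of Slc2a8 and Slc2a1 overlapped. By mean expected count, which is not per length, Slc2a1 stood above Slc2a8, Slc2a3 above Slc2a5 and Slc2a13 above Slc2a6. The first of these held in replicate 1 only. In replicate 2 Slc2a8 had 3607 fragments against 3454 for Slc2a1.

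**Figure D1:**
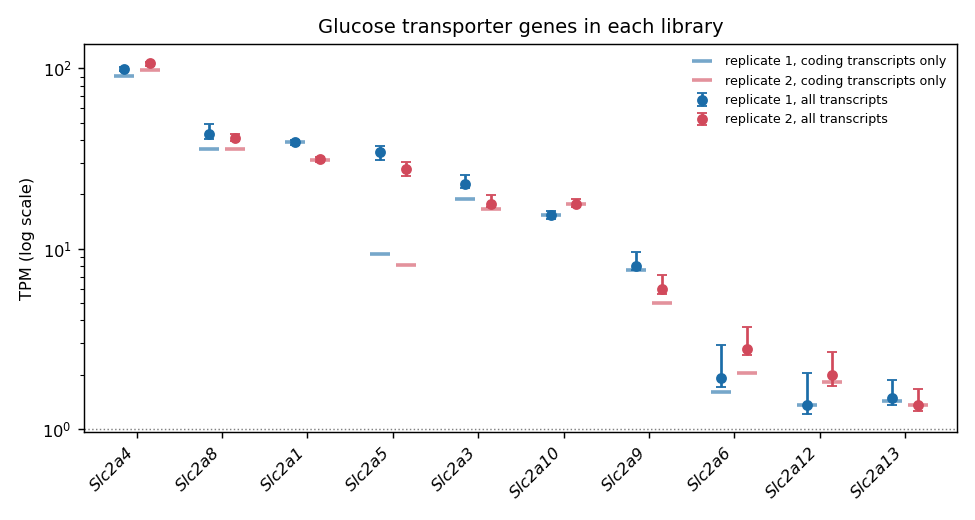
Level of each transporter gene in TPM on a log axis, in order of the mean; points are replicate 1 (blue) and replicate 2 (red) with the bounds of the authors' interval, and short bars give the level from coding transcripts only. Slc2a4 stands above the rest, and only for Slc2a5 do the bars (9.32 and 8.08 TPM) lie far under the points (34.3 and 27.6 TPM).

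The 10 genes together held 266.4 TPM in replicate 1 and 254.2 TPM in replicate 2, which is 0.0276% and 0.0261% of the TPM of all genes. The class I genes Slc2a1, Slc2a3 and Slc2a4 made up 60.4% and 61.2% of that sum. The class II genes Slc2a5 and Slc2a9 made up 15.9% and 13.2%. The other 5 genes, of class III, made up 23.8% and 25.6%. Slc2a4 alone held 37.2% and 41.9%, so a single gene carried most of the class I share.

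The class I genes can be told from the rest in their coding sequence. Across the seventh membrane helix the class I proteins share a glutamine, leucine and serine motif that has been linked to the choice of glucose over fructose. The codons aligned to that motif, in capitals, are shown for Slc2a3, Slc2a4 and Slc2a5 because they separate class I genes from the gene of the fructose carrier. Each window holds 13 codons of the leading coding transcript, from GENCODE M21 on build mm10.
Slc2a3: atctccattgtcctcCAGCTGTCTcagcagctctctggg
Slc2a4: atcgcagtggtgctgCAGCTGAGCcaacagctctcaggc
Slc2a5: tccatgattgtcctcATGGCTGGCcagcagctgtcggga
The windows lie at chr6:122735432-122735470 on the minus strand for Slc2a3, at chr11:69945278-69945316 on the minus strand for Slc2a4 and at chr4:150139771-150139809 on the plus strand for Slc2a5. The capitals start at codon 277, 295 and 284 in that order. Codons for this motif were found at the aligned place in 3 of the 10 genes, Slc2a1, Slc2a3 and Slc2a4. Translated along their whole length, Slc2a1 and Slc2a3 were 66.8% identical, as were Slc2a1 and Slc2a4, while Slc2a3 and Slc2a4 were 57.1% identical. The median over all pairs of the 10 genes was 32.0%, and the lowest value, 25.0%, was that of Slc2a9 and Slc2a12.

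Slc2a4 encodes GLUT4, the insulin-responsive carrier of fat and muscle, and lies at chr11:69942539-69948188 on the minus strand (mm10). It had 7991 expected fragments in replicate 1 and 10433 in replicate 2, a mean of 102.8 ± 5.25 TPM (SD, n = 2). At these levels 90.6% and 91.8% of expressed genes lay below it. The authors' intervals, whose level is not stated in the sources used here, ran from 96.1 to 101.5 TPM in replicate 1 and from 103.5 to 108.9 TPM in replicate 2, so they did not overlap. The main coding transcript Slc2a4-201 carried 84.7% and 82.6% of the gene's TPM, at 83.9 and 88.0 TPM. A shorter coding transcript, Slc2a4-203, added 5.89% and 5.96%. A nonsense-mediated decay transcript, Slc2a4-206, which is a form marked for breakdown, held 5.14% and 5.40%. Coding transcripts summed to 91.0 and 97.4 TPM, so the rank of Slc2a4 does not rest on non-coding forms.

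Sorting signals near the start of the coding sequence set GLUT4 and GLUT8, products of the members with the highest levels, apart from GLUT1. GLUT4 has a phenylalanine-based signal and GLUT8 a dileucine signal, both known to hold the carrier on internal membranes. The first 48 coding bases are shown, with the codons of each signal in capitals where one was found.
Slc2a4: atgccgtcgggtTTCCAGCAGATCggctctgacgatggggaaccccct
Slc2a8: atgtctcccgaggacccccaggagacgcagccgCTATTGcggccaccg
Slc2a1: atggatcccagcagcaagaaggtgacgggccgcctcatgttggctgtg
The Slc2a4 stretch spans chr11:69946670-69947981 on the minus strand and crosses an intron, and its capitals begin at codon 5. The Slc2a8 stretch is chr2:32981966-32982013 on the minus strand, within 1 exon, and its capitals begin at codon 12. The Slc2a1 stretch spans chr4:119108955-119120420 on the plus strand, also across an intron.

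Slc2a1 encodes GLUT1, the carrier that supplies basal glucose to most cell types and is abundant in endothelium of the brain. It lies at chr4:119108711-119137983 on the plus strand. Its level was 39.0 TPM in replicate 1 and 31.3 TPM in replicate 2, from 3468 and 3454 fragments, with a mean of 35.1 ± 5.46 TPM (SD, n = 2). It was thus lower in replicate 2, and the authors' intervals, 37.4 to 40.0 TPM and 30.1 to 32.2 TPM, did not overlap. Nearly all of it was the coding transcript Slc2a1-201, with 99.8% of the gene's TPM in each library. This transcript differs in length between annotation M4, used for the deposited tables, and M21, used here for positions. A microRNA gene and 2 antisense genes overlap Slc2a1, all with 0 fragments in both libraries.

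Slc2a3 encodes GLUT3, a carrier of high affinity known from neurons, sperm and white blood cells, and lies at chr6:122727809-122801640 on the minus strand. Its level was 22.7 TPM in replicate 1 and 17.7 TPM in replicate 2, from 2788 and 2756 fragments, with a mean of 20.2 ± 3.54 TPM (SD, n = 2). As with Slc2a1, replicate 2 was lower and the authors' intervals, 21.6 to 25.7 TPM and 17.1 to 19.8 TPM, were apart. The coding transcript Slc2a3-201 carried 79.6% and 82.4% of the TPM. The libraries differed more in its minor forms. The nonsense-mediated decay transcript Slc2a3-203 held 13.4% of the TPM in replicate 1, from 125.5 fragments with a posterior SD of 37.2, and 0 in replicate 2, with a posterior SD of 5.75 fragments. The short coding transcript Slc2a3-202 held 3.02% and 10.1%, from 9.85 and 31.3 fragments. With coding transcripts only, Slc2a3 stood at 18.8 and 16.5 TPM, so its difference between the libraries went from -0.34 to -0.18 as the log2 ratio of (TPM + 1). A processed pseudogene, Gm4482, overlaps Slc2a3 in M21 and was not analysed here.

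Slc2a5 was the member whose level depended most on which transcripts were counted. The gene encodes GLUT5, the fructose carrier of the small intestine, and lies at chr4:150119283-150144169 on the plus strand. By gene it stood at 34.3 TPM in replicate 1 and 27.6 TPM in replicate 2, from 1376 and 1441 fragments, a mean of 31.0 ± 4.68 TPM (SD, n = 2). The authors' intervals, 31.2 to 37.3 TPM and 25.1 to 30.1 TPM, did not overlap. Its coding transcript Slc2a5-201 held only 27.2% and 29.2% of that, or 9.32 and 8.08 TPM. The remainder was mostly Slc2a5-204, a processed transcript with no annotated coding sequence, at 23.9 and 18.6 TPM, which is 69.8% and 67.3%.

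Counted in fragments the same gene looked different. Slc2a5-201 had 1022 fragments in replicate 1 and 1101 in replicate 2, with posterior SDs of 12.6 and 13.3. Slc2a5-204 had 336.5 and 320.2 fragments, with posterior SDs of 13.4 and 13.5. Coding transcripts thus held 74.3% and 76.4% of the fragments. The transcripts differ in length, 3158 nt for Slc2a5-201 and 594 nt for Slc2a5-204, and TPM divides by the effective length, which for Slc2a5-204 was 377.5 and 370.5 nt. With all fragments of the gene divided by the effective length of its coding transcript, an alternative chosen after these values were seen, Slc2a5 came to 12.5 and 10.6 TPM. Counting coding transcripts alone moved Slc2a5 from the fourth to the sixth place among the members, below Slc2a3 and Slc2a10. Among the 10 genes it was the 1 with under 50% of its TPM in coding transcripts in both libraries, beside 8.67% of the expressed protein-coding genes.

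Slc2a5-204 has 5 exons against 14 in Slc2a5-201, and begins 20270 nt downstream of the start of Slc2a5-201. Of its 594 bases, 516 lie in exons of Slc2a5-201. Only its first 78 bases are its own, and they lie in an intron of 84 nt just before exon 9 of Slc2a5-201, the first exon that both have. These bases are shown because they are the sole stretch by which fragments of Slc2a5-204 can be told from Slc2a5-201 by sequence within exons. They lie at chr4:150139553-150139630 on the plus strand, and the capitals mark the last 2 bases of the intron.
Slc2a5-204: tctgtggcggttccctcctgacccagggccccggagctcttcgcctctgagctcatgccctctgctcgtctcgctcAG
RNA in which the 84 nt intron was retained would also hold these bases, and such RNA was not told apart from Slc2a5-204 here.

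**Figure D2:**
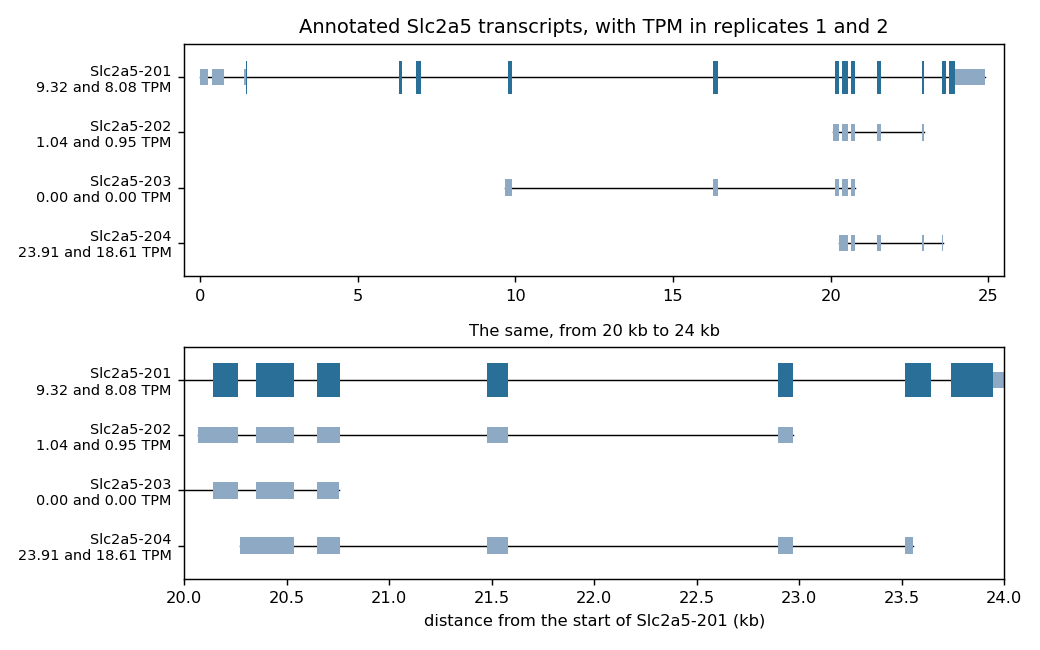
Map of the annotated Slc2a5 transcripts against the distance in kb from the start of Slc2a5-201, whole above and from 20 kb to 24 kb below; tall boxes are coding, low boxes are other exon sequence, and TPM of replicates 1 and 2 stands beside each name. Slc2a5-204 overlaps exons of Slc2a5-201 except for its first 78 bases, and holds 23.9 and 18.6 TPM against 9.32 and 8.08 TPM.

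Slc2a9 encodes GLUT9, known as a urate carrier, and lies at chr5:38349273-38503143 on the minus strand. Its level was 8.05 TPM in replicate 1 and 5.96 TPM in replicate 2, from 777 and 680 fragments, with a mean of 7.01 ± 1.48 TPM (SD, n = 2). Replicate 2 was lower, and the authors' intervals, 7.64 to 9.52 TPM and 5.60 to 7.09 TPM, did not overlap. In translation Slc2a5 and Slc2a9, both class II, were 46.2% identical.

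Slc2a9 was the only member with 3 coding transcripts at 10% or more of its TPM in both libraries. Slc2a9-202 held 56.1% and 46.0%, Slc2a9-203 held 15.4% and 21.7%, and Slc2a9-207 held 22.5% and 16.2%. Slc2a9-202 and Slc2a9-203 have 11 of their 12 exons in common and start 3079 nt apart. They begin translation in different exons, so the carriers they encode differ at the N-terminus. The coding part of each first coding exon is shown, with the start codon in capitals, since this is where the forms differ.
Slc2a9-202: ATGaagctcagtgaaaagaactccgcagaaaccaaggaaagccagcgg
Slc2a9-203: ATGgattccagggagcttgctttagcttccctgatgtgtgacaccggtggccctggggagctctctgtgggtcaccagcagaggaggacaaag
The first is chr5:38483317-38483364 and the second chr5:38480039-38480131, both on the minus strand. Slc2a9-207 uses the same start codon as Slc2a9-203. Coding transcripts from that start held 37.9% of the gene's TPM in replicate 1 and 37.8% in replicate 2, from 229.9 and 250.5 fragments. The start of Slc2a9-202 had 537.2 and 405.1 fragments. The posterior SDs of Slc2a9-202, 62.6 and 58.7 fragments, and of Slc2a9-203, 46.1 and 50.4 fragments, were large for transcripts of this level. The processed transcript Slc2a9-208 held 4.75% and 14.2%, from 7.89 and 21.5 fragments.

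Slc2a8 was the highest gene of class III and second among the members. It encodes GLUT8, a carrier of internal membranes that is abundant in testis, and lies at chr2:32972990-32982083 on the minus strand. Its level was 43.3 TPM in replicate 1 and 41.2 TPM in replicate 2, from 2803 and 3607 fragments, with a mean of 42.2 ± 1.44 TPM (SD, n = 2). The levels were close and the authors' intervals, 40.3 to 49.3 TPM and 39.8 to 43.5 TPM, overlapped. The coding transcript Slc2a8-201 held 82.0% and 86.6% of the TPM, and transcripts with a retained intron held 10.1% and 10.3%. With coding transcripts only, Slc2a8 stood at 35.7 TPM in each library, and its range then overlapped that of Slc2a1, at 39.0 and 31.2 TPM.

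Slc2a10 encodes GLUT10, known from arterial tortuosity syndrome, in which its human counterpart is mutated. It lies at chr2:165503787-165519917 on the plus strand. Its level was 15.3 TPM in replicate 1 and 17.8 TPM in replicate 2, from 1896 and 2740 fragments, with a mean of 16.5 ± 1.76 TPM (SD, n = 2). Like Slc2a4 it was higher in replicate 2 with authors' intervals apart, here 14.6 to 16.2 TPM and 17.1 to 18.7 TPM. All of its TPM was given to the coding transcript Slc2a10-201 in both libraries.

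The other 3 class III genes were near the threshold of expression. Slc2a6 encodes GLUT6, a lysosomal carrier, and lies at chr2:27021363-27027998 on the minus strand. It stood at 1.92 TPM in replicate 1 and 2.76 TPM in replicate 2, from 130 and 254 fragments, with a mean of 2.34 ± 0.59 TPM (SD, n = 2). Its authors' intervals, 1.71 to 2.91 TPM and 2.56 to 3.69 TPM, overlapped. The coding transcript Slc2a6-201 held 83.4% and 72.5% of the TPM. The processed transcript Slc2a6-205 held 2.21% and 20.5%, from 3.37 and 55.8 fragments, so the libraries differed in which forms the fragments were given to.

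Slc2a12 encodes GLUT12, a carrier found in muscle and fat, and lies at chr10:22645011-22704285 on the plus strand. It stood at 1.36 TPM in replicate 1 and 1.99 TPM in replicate 2, from 199.95 and 334 fragments, with a mean of 1.68 ± 0.45 TPM (SD, n = 2). The authors' intervals, 1.20 to 2.05 TPM and 1.73 to 2.66 TPM, overlapped. The coding transcript Slc2a12-201 held 100% and 91.1% of the TPM, and 100% and 99.6% of the fragments. The rest in replicate 2 was the processed transcript Slc2a12-202, from 1.44 fragments, under the floor of 3 taken here. The gene overlaps Tbpl1, a gene of the opposite strand at 22.8 and 19.6 TPM, and the strand setting of the authors' quantification is not given in the sources used here. Whether fragments of Tbpl1 were given to Slc2a12 was not tested.

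Slc2a13 encodes a proton-coupled myo-inositol carrier, HMIT, and lies at chr15:91267696-91573261 on the minus strand. It stood at 1.49 TPM in replicate 1 and 1.36 TPM in replicate 2, from 339 and 400 fragments, with a mean of 1.43 ± 0.092 TPM (SD, n = 2). The authors' intervals ran from 1.36 to 1.87 TPM and from 1.26 to 1.67 TPM. More fragments in replicate 2 went with a lower TPM there, and these intervals overlapped. Its coding transcript Slc2a13-202 held 94.8% and 100% of the TPM. At 637 codons it has the longest coding sequence of the leading coding transcripts, against 477 codons for Slc2a8, the shortest.

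Transcript types varied among the 10 genes. Of the 57 transcripts, 30 have a coding annotation, 30 were above 0 in both libraries and 16 were at 0 in both. In 5 genes coding transcripts held 90% or more of the TPM in both libraries. The shares over all genes and transcripts were not computed for these counts, so they describe the members only. Gene counts had a posterior SD of 0 for 9 genes in both libraries and of at most 0.2 fragments for Slc2a12. This SD does not cover errors outside the authors' model, such as fragments of an overlapping gene, which were not tested. The posterior SDs of transcripts were larger, up to 62.6 fragments for Slc2a9-202 in replicate 1. The uncertainty that these SDs cover thus lay in the split between transcripts of a gene.

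**Figure D3:**
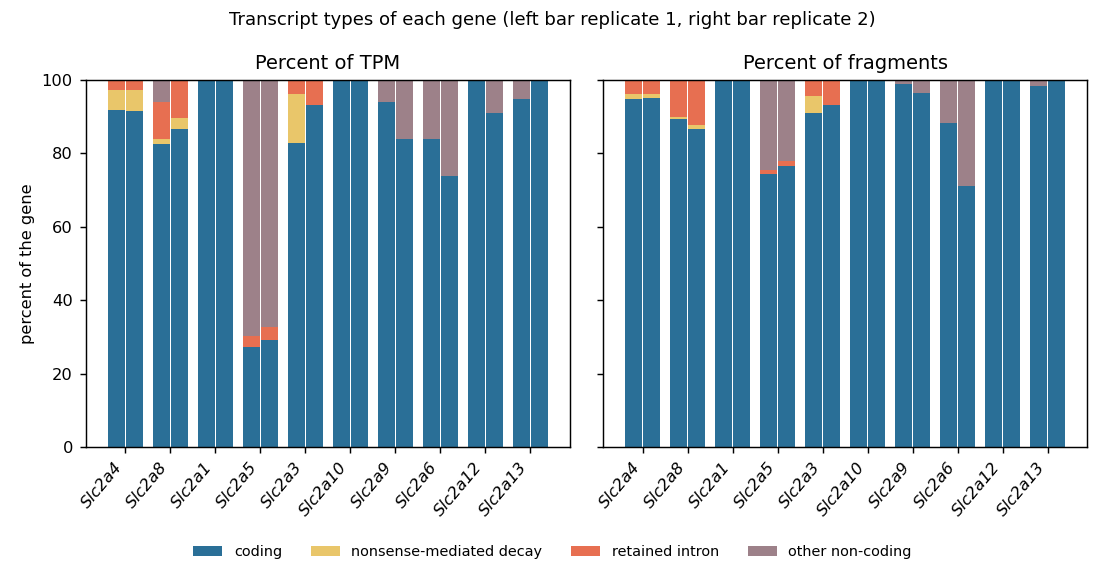
Percent of each gene's TPM (left) and of its fragments (right) in coding, nonsense-mediated decay, retained-intron and other non-coding transcripts; the left bar of each pair is replicate 1 and the right bar replicate 2. Slc2a5 has 27.2% and 29.2% of its TPM but 74.3% and 76.4% of its fragments in coding transcripts.

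None of the 10 transporters was over 2-fold apart between the libraries, beside 2.70% of genes whose mean expected count was at least 20. Among so few genes this count is near that share, so it shows nothing particular to the members. Log2 ratios of (TPM + 1), replicate 2 over replicate 1, ran from -0.38 for Slc2a9 to 0.36 for Slc2a6. This scale understates differences of low genes. Their median was -0.07, beside a median of -0.12 and an SD of 0.41 over all expressed genes.

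Because the median of all expressed genes lay below 0 on this scale, the members are best read against it. Slc2a4, Slc2a6, Slc2a8, Slc2a10, Slc2a12 and Slc2a13 lay above that median, and Slc2a1, Slc2a3, Slc2a5 and Slc2a9 lay below it. With TMM scaling of the counts in edgeR, which brought the median of expressed genes to 0.02, the same 6 had ratios above 0 and the same 4 below. With DESeq2 size factors the median was 0.03 and the signs of the 10 were again these. Slc2a8 and Slc2a13 had negative ratios in TPM, -0.07 and -0.08, and positive ones under both scalings. Slc2a6, from 130 and 254 fragments, moved most, from 0.36 in TPM to 0.81 and 0.82 under the scalings. The scaled ratios used no pseudocount, so this move is not due to scaling alone. With a pseudocount of 0.1 in place of 1, its TPM ratio was 0.50.

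The authors' intervals of the libraries were apart for 6 of the 10 genes, beside 52.0% of all expressed genes. They were apart and higher in replicate 2 for 2 genes, Slc2a4 and Slc2a10, beside 14.7% of expressed genes. They were apart and higher in replicate 1 for 4 genes, Slc2a1, Slc2a3, Slc2a5 and Slc2a9, beside 37.3%. Each interval is that of a single library and does not cover the spread between libraries. The shares for the members are near the background.

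Marker lists also differed between the libraries, and their counts are to be read beside the 34.8% of all expressed genes that were higher in replicate 2. Erythroid markers had a median log2 ratio of -1.38, with 5 of 5 expressed markers higher in replicate 1. Epididymal markers had a median of -0.67, with 6 of 8 higher in replicate 1, and spermatid and sperm markers -0.53, with 8 of 8. Adipocyte markers had a median of -0.07, with 5 of 8 higher in replicate 1, and endothelial markers 0.13, with 4 of 6 higher in replicate 2. Single adipocyte markers went both ways, from -0.85 for Cfd, which encodes adipsin, to 2.63 for Lep, which encodes leptin. Smooth muscle markers had a median of 0.15, with 3 of 5 higher in replicate 2. Of 5 skeletal muscle markers only 2 were expressed, with a median of 0.52 and both higher there. The 1 expressed neutrophil marker, of 4 listed, was at 0.71. The part of these differences in the ratios of the 10 transporters, Slc2a4 and Slc2a10 included, was not tested.

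**Figure D4:**
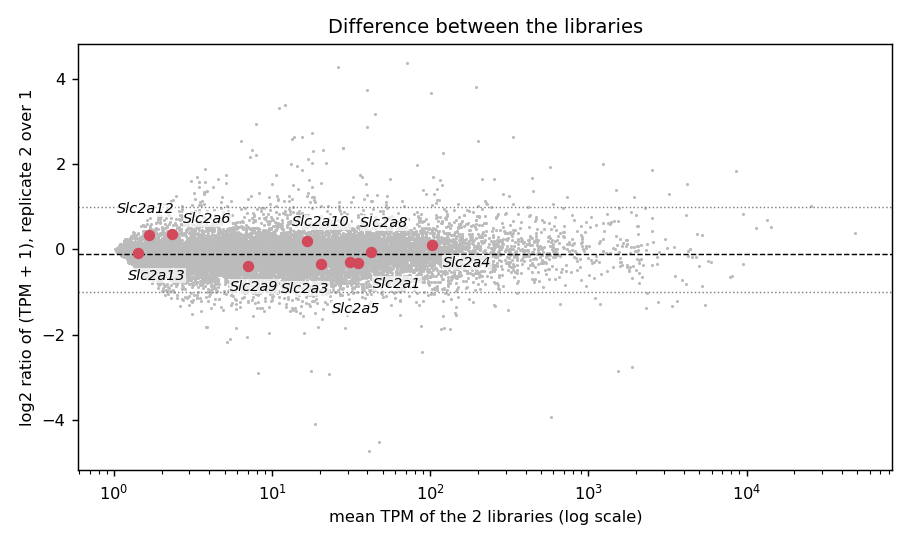
Log2 ratio of (TPM + 1), replicate 2 over replicate 1, against mean TPM on a log axis, for all 14303 expressed genes (grey) and the 10 transporters (red); the dashed line is the median of expressed genes and dotted lines mark a ratio of 2-fold. The transporters lie between -0.38 and 0.36, inside the dotted lines.

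Genes of related function place the transporters in the tissue. Their lists were chosen with earlier results of these data known, so counts of expressed genes in them are descriptions only. Of 9 other sugar transporters, 2 were expressed, beside 33.0% of all Ensembl genes. Slc50a1, which encodes the sugar carrier SWEET1, stood at 240.9 and 202.6 TPM, and the sodium-coupled carrier Slc5a9 at 3.18 and 1.53 TPM. From coding transcripts Slc5a9 was at 0.61 and 0.65 TPM, under the threshold. Slc5a10, another sodium-coupled carrier, was at 0.12 and 0.08 TPM. The remaining GLUT genes of the list were low. Slc2a2, which encodes GLUT2 of liver and pancreatic beta cells, was at 0.46 and 0.83 TPM, from 40 and 75 fragments. Slc2a7 was at 0.10 and 0.02 TPM, from 5 fragments and 1 fragment. The sodium-glucose carriers Slc5a1 and Slc5a2, of intestine and kidney, did not exceed 0.10 TPM in either library.

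The genes around GLUT4 traffic were all expressed, 16 of 16, beside 33.0% of all Ensembl genes. Their median levels were 47.6 and 43.8 TPM. Sort1, which encodes sortilin of the GLUT4 vesicle, stood at 293.6 and 226.6 TPM. The vesicle protein gene Vamp2 stood at 114.3 and 75.0 TPM, and Lrp1, whose product is also carried in these vesicles, at 142.0 and 76.1 TPM. Coding transcripts of Lrp1 held 56.4 and 26.6 TPM of that. Myo1c, which encodes a myosin of vesicle delivery, stood at 102.3 and 117.0 TPM, close to Slc2a4 itself. On the log2 scale 3 of the 16 were higher in replicate 2, with a median of -0.22, and Slc2a4 was at 0.10. Over all expressed genes 34.8% were higher in replicate 2 on this scale.

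All 10 genes listed as regulators of transporter genes or of their surface level were expressed, beside 33.0% of all Ensembl genes. Their medians were 45.7 and 46.7 TPM. The highest was Txnip, whose product promotes removal of GLUT1 from the surface, at 531.6 and 723.9 TPM by gene and at 350.4 and 352.8 TPM from coding transcripts. The lipogenic factor gene Srebf1 followed at 320.2 and 304.9 TPM. Mlxipl, which encodes the carbohydrate-responsive factor ChREBP, stood at 67.5 and 65.0 TPM, and Nr1h3, which encodes a liver X receptor, at 55.9 and 78.9 TPM. Their median log2 ratio was -0.06, with 3 of 10 higher in replicate 2, near the 34.8% of all expressed genes.

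Among the kinases that trap sugars inside the cell, 7 of 8 were expressed, beside 33.0% of all Ensembl genes. The medians of the 8 were 19.9 and 14.4 TPM. Hk2, the hexokinase of insulin-responsive tissues, stood at 49.4 and 24.1 TPM, and Hk1 at 27.6 and 17.2 TPM. The galactokinase gene Galk1 stood at 38.8 and 36.0 TPM. Khk, which encodes the fructose kinase, stood at 47.3 and 53.4 TPM by gene but at 6.53 and 7.45 TPM from coding transcripts. How its fragments were split between transcripts was not examined here.

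All 5 genes of the polyol and fructose route were expressed, beside 33.0% of all Ensembl genes. Their medians were 25.1 and 24.0 TPM. Akr1b3, aldose reductase, stood at 92.5 and 143.4 TPM. Sord, sorbitol dehydrogenase, which makes fructose, stood at 25.1 and 24.0 TPM. Tkfc, a kinase of fructose breakdown, stood at 15.3 and 13.0 TPM. The median log2 ratio of the 5 was -0.06, with 2 of them higher in replicate 2, beside 34.8% of all expressed genes.

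Of 6 genes of myo-inositol handling, the substrate of the Slc2a13 product, 4 were expressed, beside 33.0% of all Ensembl genes. Isyna1, the enzyme that makes inositol phosphate from glucose phosphate, stood at 572.0 and 393.3 TPM. The sodium-coupled inositol carrier Slc5a3 stood at 17.4 and 11.7 TPM, above Slc2a13 at 1.49 and 1.36 TPM in both libraries. The inositol phosphatase genes Impa1 and Impa2 stood at 16.3 and 13.6 TPM and at 16.0 and 12.3 TPM. None of the 4 was higher in replicate 2, beside 34.8% of all expressed genes, and their median log2 ratio was -0.45.

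**Figure D5:**
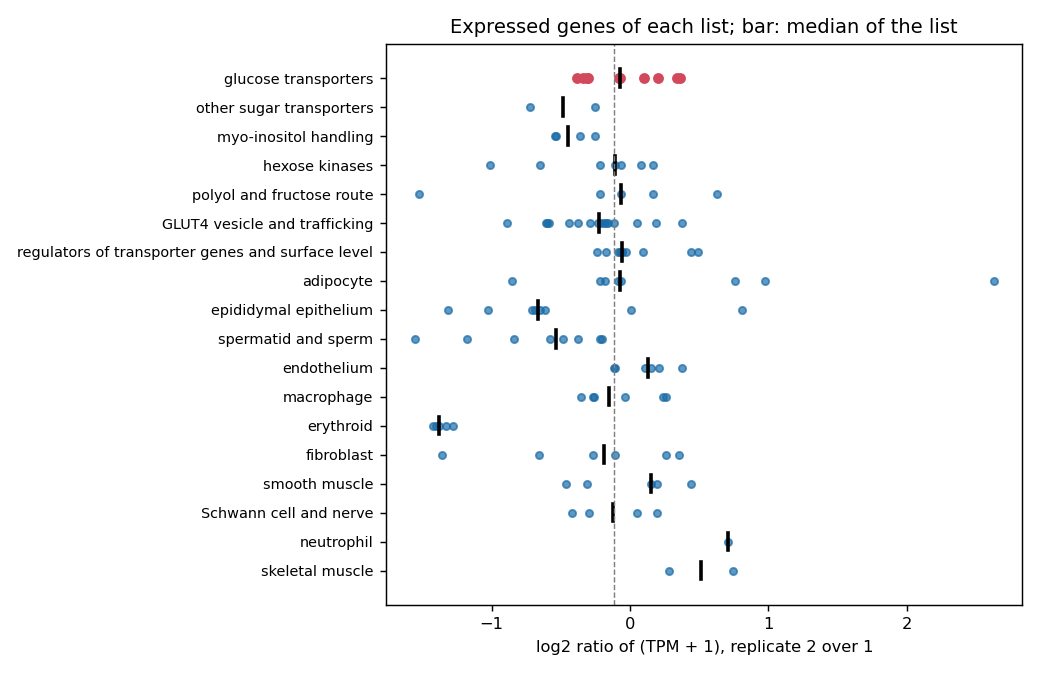
Log2 ratio of (TPM + 1), replicate 2 over replicate 1, for each expressed gene (points) of each list, with the list's median (black bar) and the median of all expressed genes (dashed line). The transporters have a median of -0.07, while erythroid, epididymal and sperm markers have medians of -1.38, -0.67 and -0.53.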

How the data were processed

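The series holds 2 strand-specific polyA RNA-seq libraries of mouse gonadal fat pad, read as 76 nt pairs from RNA over 200 nt, per the labels. The deposited tables give for each gene and transcript an expected count (estimated fragments), TPM, FPKM and posterior means. They also give other values per the file headers: length, effective length and the posterior SD of the count. The authors' interval bounds on TPM are a signal with no stated level. The deposited transcript tables add the percent of a gene's TPM per transcript. The accompanying notes name build mm10 and annotation M4. The aligner is not given in the sources used here, nor is the program that estimated the counts. Deposited junction and contig tables on build mm9 were not used here.

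Members were matched by Ensembl identifier without version. Positions, types and coding sequences are from GENCODE M21 (mm10), and 54 of 57 transcripts have the same length in both annotations. A gene reaching 1 TPM in each library was called expressed. The log2 ratio used a pseudocount of 1. The 2-fold rule needed a mean expected count of 20 or more. Neighbouring genes were compared by their ranges, and each deposited interval is that of a single library. A count of 3 fragments was taken as the floor, which covers counting error only, and every member lay above it, with 130 to 10433 fragments. Identity came from global alignment of translated coding sequences (Biopython 1.88, BLOSUM62, gap opening 11 and extension 1). Tables were handled in Python 3.11.15 with pandas 2.3.3. The code of the 2-fold rule was tested on simulated data.

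Alternatives were FPKM, posterior mean TPM, coding transcripts only, removal of spike-ins and mitochondrial genes, other thresholds, a pseudocount of 0.1, each library alone, and scaling of rounded expected counts by TMM (edgeR 4.0.16) or DESeq2 1.42.0 size factors. All 10 members are named, with up to 4 genes of highest mean TPM per function list, a fixed set of textbook genes, and transcripts at 10% or more of a member's TPM. Other transcripts, and the markers Acta1, Cfd and Lep, were chosen after their values were seen. The members and lists were chosen with earlier results of these data known. Some list genes and sequence windows are not reported here.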

Additional observations from a re-analysis of the deposited data

How the results depend on the processing

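At a threshold of 5 TPM, 7 of the 10 transporters stayed expressed. All 10 did so at 0.5 TPM and in each library alone, which follows from their reaching 1 TPM in both. The count over 2-fold apart was 0 under both scalings. It was also 0 with count minimums of 10 and 100, which could not change it, since every member had at least 130 fragments. Log2 ratios that changed sign were those of Slc2a8 (main -0.07), to 0.21 with TMM, 0.22 with DESeq2 size factors and 0.0012 with coding transcripts only, and of Slc2a13 (main -0.08), to 0.085 and 0.094 with TMM and DESeq2. TPM divides by effective length, while scaled counts divide only by a factor per library, and their ratios used no pseudocount. Coding sums leave out other transcripts. The ratio of Slc2a6 rose from 0.36 to 0.81 and 0.82 under the TMM and DESeq2 scalings, and to 0.50 in TPM with a pseudocount of 0.1. Levels moved by less than the replicate SD in 32 pairs of gene and alternative and by more in 18. The 18 include moves under FPKM, which is another unit, and under removal of spike-ins and mitochondrial genes. Both rescale all genes of a library alike, so such moves do not alter the members relative to each other. Ordered by expected count, which is not per length, 3 of the 10 genes kept their place. The Slc2a4 share of the members' TPM, 39.5% as the mean of the libraries, was 43.0% with coding transcripts only and ranged from 37.2 to 41.9% with each library alone. The leading transcript was the same by fragments for 9 genes, and for Slc2a5 it became Slc2a5-201. With 2 libraries the spread of a low gene such as Slc2a6, from 130 and 254 fragments, is poorly known. No paired analysis was possible because there is 1 group.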
